A study of Mus musculus with 2 samples.

Results

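Mir219a-1, Mir219a-2 and Mir338 encode the microRNAs miR-219 and miR-338, and Mir219b and Mir3065 are hairpins annotated on the opposite strand of Mir219a-2 and Mir338. These 5 genes were taken by their GENCODE M21 gene names from the 2202 microRNA genes counted in each library, and all 5 were found. The libraries are microRNA-seq of total RNA, and the tissue was left cerebral cortex from 2 females aged 36 days. Both mice are B6CASTF1/J, the hybrid of C57BL/6J and CAST/EiJ, supplied by The Jackson Laboratory. The labels name both mice as biological replicates of 1 group and give no treatment, allele or second tissue, so no comparison between conditions exists. Mouse 1 gave 1930234 and mouse 2 gave 1863876 reads on the strand of a microRNA gene, and levels are in CPM, the reads of a gene per 1000000 of these sense-strand reads. Each mean ± SD is over n = 2 mice, and intervals cover counting error only, since PCR copies count as reads.

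MicroRNAs are cut from a folded hairpin transcript into a short duplex, of which 1 arm is usually loaded onto an Argonaute protein and pairs with messenger RNAs through its seed, bases 2 to 8. miR-219 and miR-338 are best known from oligodendrocytes, the cells that wrap axons in myelin: both rise when oligodendrocyte precursors leave the cell cycle and differentiate. They are known to repress genes that hold the precursor state, among them the growth factor receptor gene Pdgfra and the transcription factor gene Sox6 for miR-219, and Sox6 and Hes5 for miR-338. Myelin is still being laid down in the cortex of mice of this age.

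The mature sequences are shown first because the seeds set the 2 families apart and because the repeat of 1 mature sequence at a pair of loci bears on which reads could be counted. They are RefSeq entries on GRCm38.p6, the assembly also called mm10, written 5′ to 3′ with the seed in capitals. All 5 genes matched RefSeq hairpins by symbol, with the same coordinates as in GENCODE.
miR-219a-5p (Mir219a-1 and Mir219a-2): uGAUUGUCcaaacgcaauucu
miR-219a-1-3p (Mir219a-1): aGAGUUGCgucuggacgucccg
miR-219b-5p (Mir219b): aGAUGUCCagccacaauucucg
miR-219b-3p (Mir219b): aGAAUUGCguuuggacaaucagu
miR-338-5p (Mir338): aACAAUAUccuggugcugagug
miR-338-3p (Mir338): uCCAGCAUcagugauuuuguug
miR-3065-5p (Mir3065): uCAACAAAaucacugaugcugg
The opposite arm of Mir219a-2 is known as miR-219a-2-3p. No 2 of the 7 sequences shared a seed, and 0 mature sequences of any other name in the RefSeq table carried the seed of miR-219a-5p or of miR-338-3p. The 5 genes therefore hold no shared seed family beyond the repeat of miR-219a-5p itself.

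The hairpins show how far the copies and the strand partners match. Arms listed in RefSeq are in capitals.
Mir219a-2 (chr2:29845631-29845727, minus strand): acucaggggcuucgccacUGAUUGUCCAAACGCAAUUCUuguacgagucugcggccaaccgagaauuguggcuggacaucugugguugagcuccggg
Mir219a-1 (chr17:34024983-34025092, minus strand): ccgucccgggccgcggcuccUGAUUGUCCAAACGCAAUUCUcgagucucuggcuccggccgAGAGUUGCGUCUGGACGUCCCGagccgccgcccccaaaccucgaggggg
Mir219b (chr2:29845647-29845711, plus strand): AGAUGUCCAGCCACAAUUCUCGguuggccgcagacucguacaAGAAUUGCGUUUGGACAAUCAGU
Mir338 (chr11:120014765-120014862, minus strand): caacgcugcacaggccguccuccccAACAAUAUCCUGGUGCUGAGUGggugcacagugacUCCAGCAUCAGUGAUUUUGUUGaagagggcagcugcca
Mir3065 (chr11:120014767-120014853, plus strand): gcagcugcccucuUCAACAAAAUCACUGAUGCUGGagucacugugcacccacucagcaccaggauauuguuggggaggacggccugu
Mir219a-1 and Mir219a-2 were identical at 72 of 114 columns of a global alignment (63.2%), and their longest common run was 22 bases, miR-219a-5p with the base before it. Exactly 3 of the 78 windows of 20 bases in Mir219a-2, and 3 of the 91 in Mir219a-1, also lay in the other copy. Mir338 and Mir3065 shared 0 windows of 20 bases with any other RefSeq hairpin read in the same direction. Mir219b shared 1 such window with Mir219c, the plus-strand hairpin annotated over Mir219a-1. Among 141767 GENCODE transcripts, miR-219a-5p was found in those of Mir219a-1 and Mir219a-2, and miR-338-5p and miR-338-3p in that of Mir338 alone. A read of exactly miR-219a-5p thus fits both Mir219a loci, and reads that map to several places entered no gene count. The genome itself was not searched.

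Both strands of the Mir219a-2 and Mir338 loci carry annotated hairpins, 1 inside the other. The 65 bases of Mir219b lie within the 97 of Mir219a-2, and the 87 of Mir3065 within the 98 of Mir338. miR-219b-3p covers all 21 bases of miR-219a-5p as its perfect complement, and miR-3065-5p is complementary to 21 of the 22 bases of miR-338-3p. The loci differ in their surroundings. Mir338 lies in intron 7 of the kinase gene Aatk (chr11:120007313-120047167), on the same strand, with 596 bases to the exon before it and 1030 to the exon after it in the 3 protein-coding transcripts that contain it. Mir3065 lies in the same intron, antisense to Aatk. Mir219a-2 and Mir219b lie in no other annotated gene; the nearest is Urm1, 628 bases from Mir219a-2. Mir219a-1 lies between Ring1 (302 bases away) and H2-Ke6 (940 bases away), and 88 of its 110 bases overlap an exon of the long non-coding gene Gm26940 on the same strand. GC content was 69.1% in Mir219a-1, 55.7% in Mir219a-2, 49.2% in Mir219b, 56.1% in Mir338 and 55.2% in Mir3065.

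**Figure D1:**
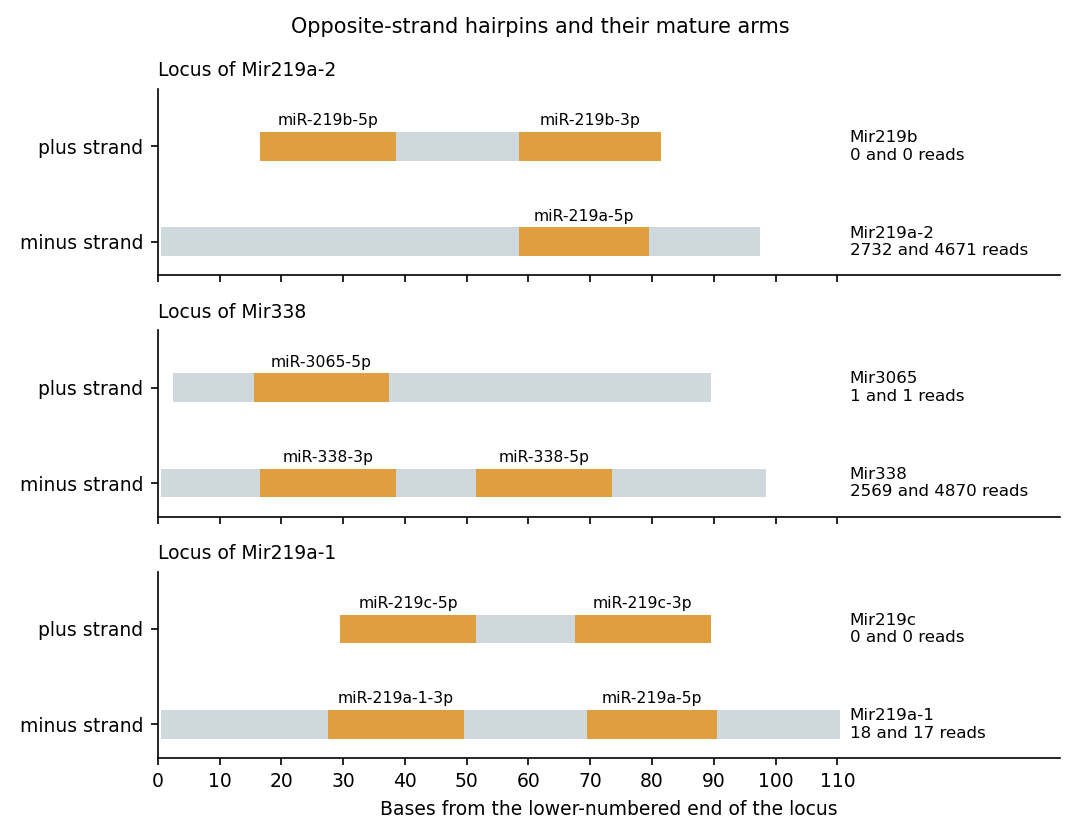
Hairpins (grey) and the mature arms listed in RefSeq (orange) on the plus and minus strand of the 3 loci, against the distance in bases from the lower-numbered end; the sense reads of mouse 1 and mouse 2 stand at the right. Nearly all reads lie on the minus strand, with 2732 and 4671 for Mir219a-2 against 0 and 0 for Mir219b, and 1 plus-strand read in each mouse for Mir3065.

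Mir338 and Mir219a-2 each had 2569 reads or more in both mice, and the other 3 genes were at or near 0 or under 10 CPM. Mir338 had 2569 reads in mouse 1 and 4870 in mouse 2, or 1331 and 2613 CPM (95% Poisson intervals 1280 to 1383 and 2540 to 2687). Mir219a-2 had 2732 and 4671 reads, or 1415 and 2506 CPM (intervals 1363 to 1469 and 2435 to 2579). Both genes were lower in mouse 1 and higher in mouse 2, and within each mouse they stood close together. The count of Mir219a-2 leaves out reads of exactly miR-219a-5p, which also fit Mir219a-1, so this closeness concerns placed reads only. The means were 1972 ± 906 CPM for Mir338 and 1961 ± 771 CPM for Mir219a-2. They took places 67 and 68 of the 2202 genes by mean level, between Mir34a (1982 ± 262 CPM) and Mir181d (1955 ± 494 CPM), and none of these 4 neighbours differed from the next beyond the spread between the mice. Mir338 held 0.133% of sense reads in mouse 1 and 0.261% in mouse 2, and Mir219a-2 held 0.142% and 0.251%. A mature microRNA is read whole, so its reads do not scale with hairpin length. Per 100 hairpin bases, Mir219a-2 stood at 2021 ± 795 CPM and Mir338 at 2012 ± 925 CPM, which turned their order without a difference beyond the spread.

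Mir219a-1, the second locus of miR-219a-5p, had 18 reads in mouse 1 and 17 in mouse 2. These are 9.33 CPM (interval 5.53 to 14.7) and 9.12 CPM (interval 5.31 to 14.6), at place 334 with a mean of 9.22 ± 0.145 CPM. Both values stood just under 10 CPM, and their intervals held it. Mir219a-2 had 152 times the reads of Mir219a-1 in mouse 1 (95% Clopper-Pearson interval 95.9 to 256) and 275 times in mouse 2 (171 to 472). Per hairpin base the ratios were 172 (109 to 291) and 312 (194 to 535). This ratio compares only the reads that could be given to a single locus: reads of exactly miR-219a-5p enter neither count, so it says nothing of the source of miR-219a-5p. A read that runs past the common run of 22 bases can still be placed. Multiply mapped reads made up 50.9% (mouse 1) and 51.2% (mouse 2) of mapped reads, and how many of them were miR-219a-5p was not measured in these tables.

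Mir3065 and Mir219b were at or near 0 reads. Mir3065 had 1 read in each mouse, or 0.518 CPM (interval 0.0131 to 2.89) and 0.537 CPM (interval 0.0136 to 2.99). Mir219b had 0 reads in both, for which a limit of 3 reads was set, or 1.55 CPM in mouse 1 and 1.61 CPM in mouse 2. Its 95% Poisson intervals reached 1.91 CPM in mouse 1 and 1.98 CPM in mouse 2. In all, 2 of the 5 genes reached 10 CPM in both mice, beside 13.8% of the 2202 genes and 25.6% of the 1174 genes with a Mir symbol. Together the 5 genes held 5320 reads in mouse 1 (0.276% of sense reads) and 9559 in mouse 2 (0.513%). Nearly all of these reads were from Mir338 and Mir219a-2.

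**Figure D2:**
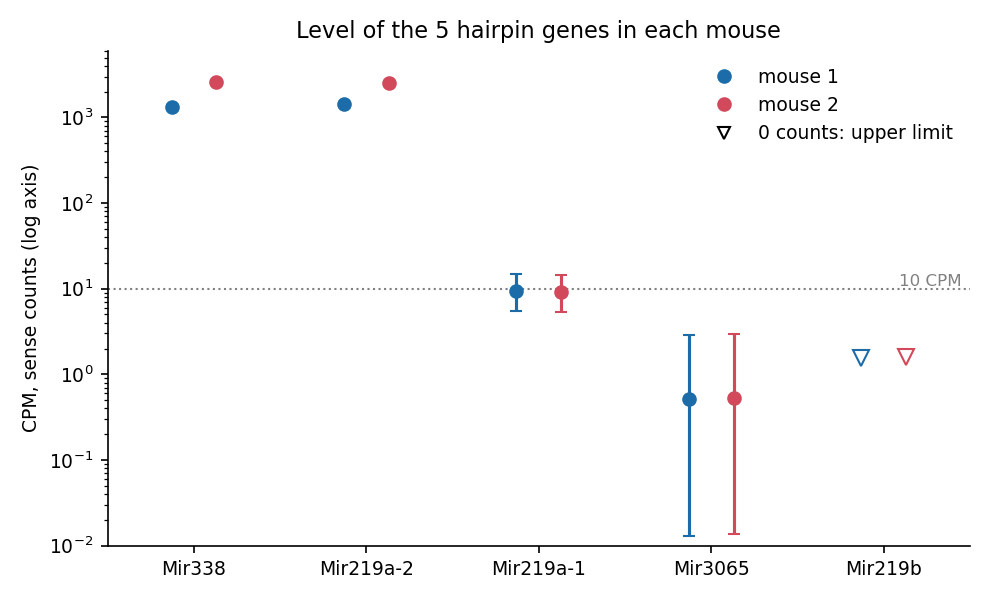
CPM on a log axis for each of the 5 genes in mouse 1 (blue) and mouse 2 (red), with bars for the 95% Poisson interval of the count and open triangles for the limit that 0 reads allow. Mir338 and Mir219a-2 sit between 1331 and 2613 CPM, Mir219a-1 just under the dotted line at 10 CPM, and Mir3065 and Mir219b lower still.

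The strand of the reads was almost wholly that of Mir338, Mir219a-2 and Mir219a-1. At Mir219a-2, 2732 of 2732 reads in mouse 1 and 4671 of 4671 in mouse 2 were on its strand (100%, 95% Clopper-Pearson intervals from 99.87% and 99.92% up). At Mir338, 1 read in each mouse was on the opposite strand, which left 99.96% (interval 99.78% to 99.999%) and 99.98% (interval 99.89% to 99.9995%) on its own. The 18 and 17 reads of Mir219a-1 were all on its strand, where the small counts allow shares down to 81.5% and 80.5%. The sense count of each minus-strand gene equalled, read for read, the opposite-strand count of its plus-strand partner, so the same reads stood in both rows. Against a set limit of 3 reads per library, Mir219a-2 had at least 911-fold more reads than Mir219b in mouse 1 and at least 1557-fold more in mouse 2. The 95% Clopper-Pearson lower limits of these ratios were smaller, 740 in mouse 1 and 1266 in mouse 2. Mir338 had 2569 times the reads of Mir3065 in mouse 1 (interval 461 to 101509) and 4870 times in mouse 2 (interval 874 to 192394), ratios that rest on the single read of Mir3065. The lowest free energy that RNAfold predicted was −41.9 kcal/mol for Mir338 and −39.0 for Mir3065, but −48.2 for Mir219a-2 and −18.8 for the shorter Mir219b.

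Read without regard to strand, the 2 abundant genes disappear from the tables. The deposited unstranded column held 0 reads for all 5 genes in both mice, whose line of ambiguous reads takes those that fall on an opposite-strand pair. The 5320 and 9559 sense reads of the 5 genes correspond to 3.95% of the 134651 ambiguous reads in mouse 1 and 6.46% of the 147893 in mouse 2. Every statement on Mir219a-2 and Mir338 thus rests on the stranded column.

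A high hairpin with an opposite partner at or near 0 was the usual case in these libraries, so the 2 loci did not stand apart in this. Of 32 pairs of microRNA genes that overlap on opposite strands, 25 had a summed mean of at least 10 CPM. In 23 of these 25 the lower gene held under 1% of the pair's reads in both mice, and in 20 it had 0 reads in both. Mir338 with Mir3065 was the sixth and Mir219a-2 with Mir219b the seventh highest pair, after those led by Mirlet7e, Mir126a, Mir191, Mir378a and Mir30e. Mir3065, at 0.0389% and 0.0205% of its pair's reads, was 1 of the 5 lower genes with any read. The lower gene with the largest share was Mir3074-1, opposite Mir24-1, at a mean of 13.5%. Mir219a-1 with Mir219c, which had 0 reads in both mice, fell just under 10 CPM.

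**Figure D3:**
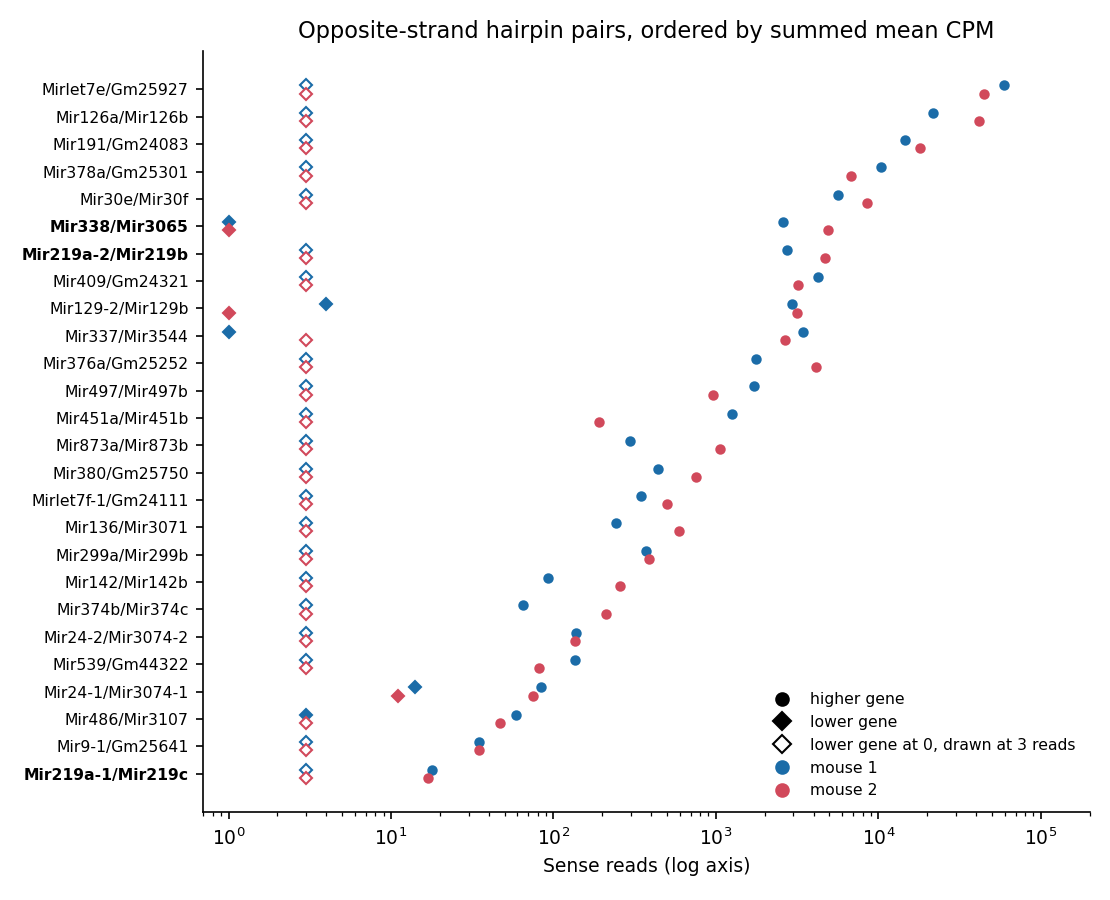
Sense reads on a log axis for the 26 highest pairs of microRNA genes on opposite strands, ordered by summed mean CPM, with circles for the higher gene, diamonds for the lower gene and open diamonds, drawn at 3 reads, where the lower gene had 0. The loci in bold follow the pattern of most other pairs, and Mir3065 shows its single read in each mouse.

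Both abundant loci were higher in mouse 2, by similar amounts. Ratios between the mice use TMM library sizes and were tested with a two-sided exact binomial test, which compares 2 libraries and not conditions, adjusted by Benjamini-Hochberg over the 324 genes whose mean was at least 10 CPM. Mir338 was 1.90-fold higher in mouse 2 (95% interval 1.81 to 1.99, log2 ratio 0.93, adjusted p = 3.65e-159 by the exact test). Mir219a-2 was 1.71-fold higher (interval 1.63 to 1.80, log2 ratio 0.78, adjusted p = 1.61e-113 by the exact test). Passing that test was common: 74.7% of the 324 genes passed it, with the higher value in mouse 2 for 38.0% and in mouse 1 for 36.7%. Adding a minimum of 2-fold left 19.4% of the genes, and neither Mir338 nor Mir219a-2 was among them. Over the 324 genes the median log2 ratio was −0.0038, and the median absolute log2 ratio was 0.53 (1.44-fold). Differences smaller than that of Mir219a-2 were seen in 67.6% of the genes and smaller than that of Mir338 in 78.1%. Mir219a-1 was below the level for testing, with a log2 ratio of −0.08 (interval −1.13 to 0.96), an interval that holds the values of both other loci. Each mouse gave 1 library, so a difference between animals and one of library preparation cannot be told apart.

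**Figure D4:**
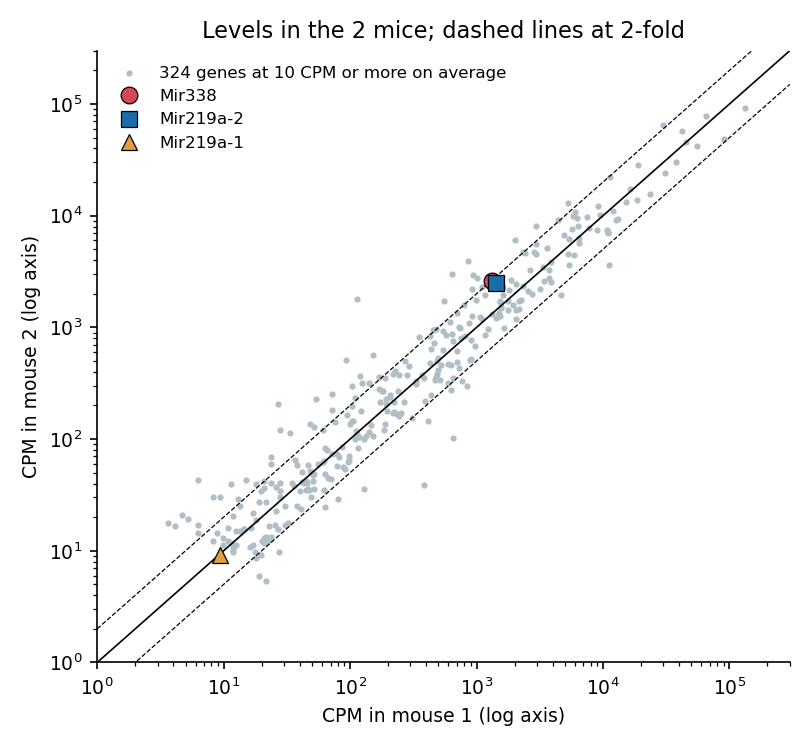
CPM in mouse 2 against CPM in mouse 1, both on log axes, for the 324 genes with a mean of at least 10 CPM (grey), with Mir338, Mir219a-2 and Mir219a-1 marked; the solid line marks equal levels and the dashed lines 2-fold. Mir338 and Mir219a-2 lie side by side just inside the upper 2-fold line, and Mir219a-1 lies near the solid line.

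In both mice the placed reads of Mir338 and Mir219a-2, on chromosomes 11 and 2, kept nearly the same proportion. Reads of exactly miR-219a-5p also fit Mir219a-1 and are missing from the Mir219a-2 count, whereas both Mir338 arms were found in Mir338 alone. The share and the distances below therefore compare placed reads and not the output of the loci. Mir338 made up 48.5% of their summed reads in mouse 1 (95% Clopper-Pearson interval 47.1% to 49.8%) and 51.0% in mouse 2 (interval 50.03% to 52.1%), a mean of 49.8% ± 1.82. The shares lay 2.58 percentage points apart and their intervals did not overlap, so the proportion shifted slightly toward Mir338 in mouse 2 by more than counting error. By the distance of log2(CPM + 1) over the 2 mice, Mir338 was the nearest of the 303 other detected genes to Mir219a-2, and Mir219a-2 the nearest to Mir338 (distance 0.11). Next came Mir181d (0.22 from Mir219a-2 and 0.33 from Mir338) and Mir27b (0.39 and 0.33). With only 2 samples such closeness is common: 182 of the 304 detected genes (59.9%) stood in a pair of mutual nearest neighbours, and the median distance to the nearest gene was 0.16. Log2 ratios from that of Mir219a-2 to that of Mir338 were held by 15 of the 324 genes, these 2 included.

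Other microRNA genes known from oligodendrocyte differentiation were found on both sides of equality. All 7 such genes listed from background knowledge were detected, beside 13.8% of the 2202 genes and 25.6% of the 1174 genes with a Mir symbol. Mir7-1 and Mir7-2 are the current symbols of Mir7a-1 and Mir7a-2. By the exact test 4 of the 7 were higher and 3 lower in mouse 2, beside 38.0% and 36.7% of all 324 genes, with a median log2 ratio of 0.45 beside −0.0038. Mir27a (109 and 233 CPM, log2 ratio 1.05), Mir32 (13.5 and 25.2 CPM, 0.86), Mir7-1 (38.3 and 58.5 CPM, 0.56) and Mir138-1 (3633 and 5139 CPM, 0.45) were higher. Mir23a (10952 and 7150 CPM, −0.66), Mir138-2 (3203 and 2188 CPM, −0.60) and Mir7-2 (79.3 and 57.9 CPM, −0.50) were lower. Each of these except Mir32 holds 20 consecutive bases that also occur in a second hairpin, so their values, and any order among them, cover only reads placed at a single locus. Of 9 genes known from oligodendrocyte precursors, namely the Mir9 copies and the mir-17-92 cluster, 6 were detected, beside the same shares of 13.8% and 25.6%. Of these 6 genes, 2 were higher and 2 lower in mouse 2 by the exact test, beside 38.0% and 36.7% of all 324 genes. Their median log2 ratio was −0.05. The highest mean of uniquely placed reads in that list was that of Mir17 at 584 ± 60.3 CPM, and the counts of the Mir9 copies leave out reads that fit several of them.

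Some markers of other cell types had ratios close to those of the 2 loci. All 3 detected genes of the 4 on the endothelial and mural list, Mir126a (log2 ratio 0.94), Mir143 (1.00) and Mir145a (0.86), were higher in mouse 2 by the exact test, as were 38.0% of all 324 genes, and Mir126b had 0 reads in both mice. The summed level of that list was 15865 CPM in mouse 1 and 31844 CPM in mouse 2. Of the 5 leukocyte and microglia genes found, 4 were tested. Mir142 (1.46) and Mir146 (1.01), the current symbol of Mir146a, were higher in mouse 2 and Mir150 (−0.33) was lower. Over all 324 genes these shares were 38.0% and 36.7%. Mir155 (0.06) did not pass the exact test, and the list sum was 2093 and 2417 CPM. Of the 9 genes of the neuron list 6 were tested, of which 3 were higher and 3 lower in mouse 2. The higher were Mir132 (29894 and 64860 CPM, log2 ratio 1.07), Mir137 (0.74) and Mir128-1 (0.03). The lower were Mir139 (−0.56), Mir128-2 (−0.22) and Mir153 (−0.80). The list sum of 188390 and 188271 CPM thus joins opposite shifts, mainly of Mir139 and Mir132. The sum of the erythroid list was 742 CPM in mouse 1 against 153 CPM in mouse 2. By the exact test 2 of its 3 genes were lower in mouse 2, beside 36.7% of all 324 genes, and all 3 had reads. The part of these differences in the values of Mir338 and Mir219a-2 was not tested. In tissue RNA, fewer oligodendrocytes and less of a microRNA per oligodendrocyte cannot be told apart. As a check of the tissue, the lists are limited to uniquely placed reads. In the neuron list Mir139 was high (132003 and 92535 CPM). Mir124a-1, Mir124a-2 and Mir124a-3 had means of 1.05, 1.33 and 1.32 CPM. Reads that fit several of these copies enter none of their counts, so the means do not give the level of the mature microRNA. Of 9 genes known from liver or muscle, 2 were detected, beside 13.8% of the 2202 genes and 25.6% of the 1174 genes with a Mir symbol. Mir1a-1, Mir133a-1, Mir133a-2 and Mir133b had 0 reads in both mice. Reads that fit several copies would be missing there too, so these counts do not show that the microRNAs were absent. Mir122 and Mir206 were the detected genes. Mir122 of liver had 45.6 and 40.2 CPM, and Mir206 of muscle had 38.3 and 25.2 CPM. By the exact test 3 of the 4 tested genes of this list were lower in mouse 2 and 0 higher, beside 36.7% and 38.0% of all 324 genes. The 3 were Mir206 (log2 ratio −0.65), Mir208a (−1.16, 38 and 17 reads) and Mir208b (−1.75, 37 and 11 reads).

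**Figure D5:**
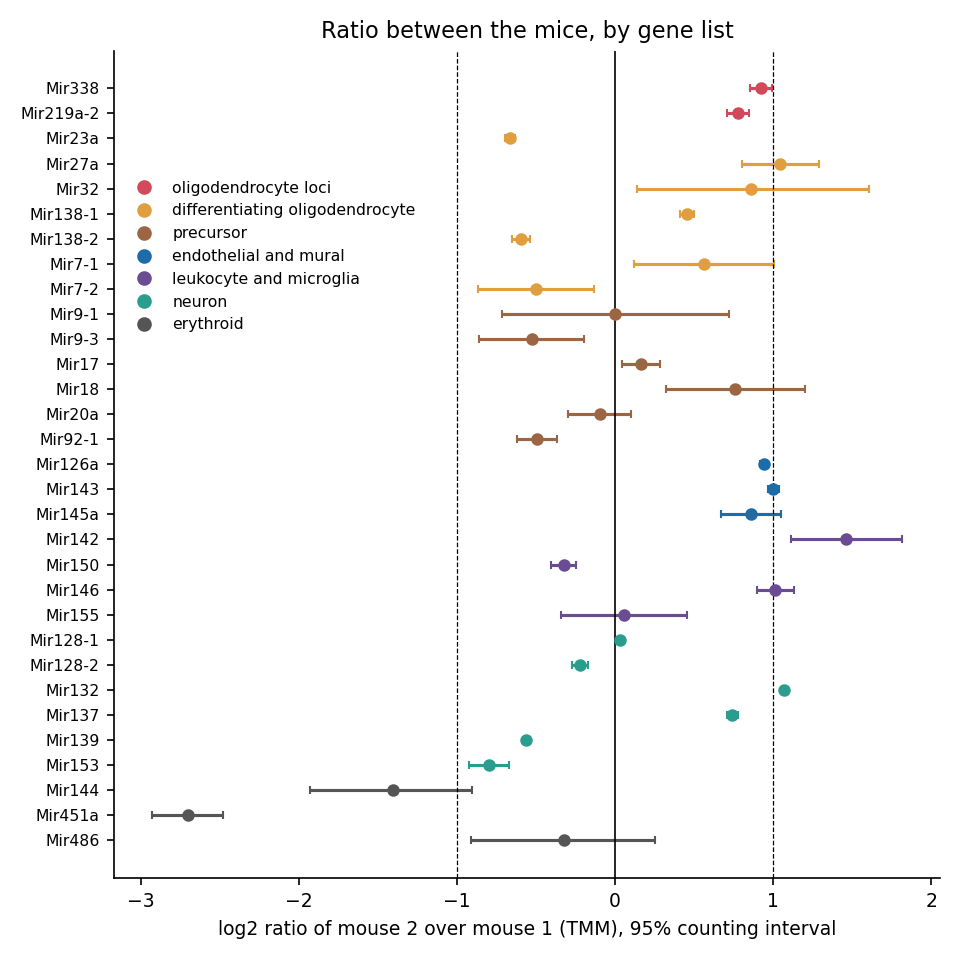
Log2 ratio of mouse 2 over mouse 1 with its 95% counting interval for Mir338, Mir219a-2 and the tested genes of 6 gene lists; dashed lines mark 2-fold. Mir338 (0.93) and Mir219a-2 (0.78) lie close to the endothelial and mural genes Mir126a, Mir143 and Mir145a. Genes of other lists lie near as well, such as Mir32 (0.86), Mir27a (1.05), Mir137 (0.74) and Mir132 (1.07). The differentiating oligodendrocyte genes and the neuron genes lie on both sides of 0.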

How the data were processed

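Per the labels, microRNA-seq was made from the left cortex of 2 mice. The authors deposited read counts per microRNA gene in 3 columns with no header, on mm10 and GENCODE M21 per the submitters' README notes; the columns were read from their values as unstranded, sense and opposite-strand counts. Aligner, counter and trimming: not given in the sources used here. Opening lines that name no gene, 4 in each file, held 72.7% (mouse 1) and 70.2% (mouse 2) of 7082096 and 6253481 reads and were left out of library sizes. CPM was computed over sense counts; a gene counted as detected from 10 CPM up in each mouse. TMM factors came from edgeR 4.0.16 and alternative size factors from DESeq2 1.42.0; with 1 group no quasi-likelihood contrast exists. Counts of the mice were compared by an exact binomial test (scipy 1.17.1, threshold 0.05). It was run on simulated counts that vary by counting error only, so that check does not cover variation between animals or libraries. Intervals are 95% Clopper-Pearson or Poisson. Sequences are from RefSeq (GRCm38.p6), and folding used RNAfold 2.7.2. Opposite-strand pairs overlap by at least 1 base.

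The 5 genes and all lists were chosen with earlier results of these data known. Named were these genes, list members where a result turned on them, the 3 genes nearest to each abundant locus and the 5 highest opposite-strand pairs; Mir34a and Mir3074-1 were named after their values were seen. Mir7a-1, Mir7a-2 and Mir146a were matched to Mir7-1, Mir7-2 and Mir146 through RefSeq synonyms and coordinates; Mir142hg, a host gene, is not analysed here. Alternatives were the count column, scaling, filter, detection level and leaving out each mouse.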

Additional observations from a re-analysis of the deposited data

How the results depend on the processing

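The level of Mir219a-2 and Mir338 depended on the count column and the denominator. In the unstranded column both means were 0 CPM, and 0 of the 5 genes reached 10 CPM in both mice, since reads over opposite-strand pairs are left out there. Per 1000000 of all reads, unmapped ones included, the means were 566 for Mir219a-2 and 571 for Mir338. With TMM factors they were 1952 and 1961 CPM. Leaving out each mouse in turn gave 1415 to 2506 CPM for Mir219a-2, 1331 to 2613 CPM for Mir338, and 48.5% to 51.0% for the share of Mir338 in their summed reads. Without mouse 1 or mouse 2 the number of genes at 10 CPM remained 2, and at 1 CPM it was 3, with Mir219a-1. The log2 ratio between the mice was 0.77 to 0.82 for Mir219a-2 and 0.92 to 0.97 for Mir338 with TMM, total counts, DESeq2 size factors or no filter, past the exact test each time and under 2-fold. It has no value in the unstranded column or with 1 mouse left out. The genes at least 2-fold apart numbered 62 to 71. No paired analysis was possible because the study has 1 group. Depth limits Mir219a-1, whose 18 and 17 reads allow ratios between the mice from 0.458 to 1.95, and more so Mir3065 and Mir219b.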
